A study of Mus musculus with 4 samples.

Results

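The clustered protocadherin genes of mouse chromosome 18 were taken as every row of the expression files on that chromosome whose symbol begins with Pcdha, Pcdhb or Pcdhg. This gave 59 of the 22892 gene rows, 15 named alpha, 22 beta and 22 gamma. Their intervals run from 37089938 to 38001526 of the mm9 build, coordinates as the files give them, over 911.6 kb. In that span the alpha genes come first, the beta genes second and the gamma genes last. The alpha intervals end together at the right-hand side of their cluster and so do the gamma intervals, whereas the beta intervals are short and separate. One further row, Pcdha4-g, starts 52 bp after Pcdha4 and runs to the gamma end, across all of the clusters. It is counted with the alpha rows in the RNA data and takes the start of Pcdha4 in the methylation data.

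Clustered protocadherins are cell-surface adhesion proteins of the cadherin superfamily. They are known above all from neurons, where each cell switches on its own combination of them and the combination serves as a surface identity in recognising self from non-self. In the alpha and gamma clusters each gene has a variable exon with a promoter of its own, spliced to constant exons shared by the cluster, while each beta gene is a single exon. The promoters and variable exons are rich in CpG, promoter choice is tied to their DNA methylation, and the architectural protein CTCF with cohesin connects active promoters to enhancers. The C-type members (Pcdhac1, Pcdhac2, Pcdhgc3, Pcdhgc4 and Pcdhgc5) lie at the 3′ ends of their clusters and are chosen less randomly in neurons. Tet enzymes oxidise 5-methylcytosine, a step towards its removal.

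The groups were E14Tg2a embryonic stem cells with Tet1, Tet2 and Tet3 knocked out (TetTKO) and unmodified E14Tg2a cells (WT), with WGBS (whole-genome bisulfite sequencing) and RNA-seq done on 1 library each. TetTKO cells came from clones picked after CRISPR transfection and puromycin selection in 2i medium, and had no 5-hydroxymethylcytosine detectable by mass spectrometry, per the labels. The labels do not say how many clones the libraries represent. Both lines then grew for at least 17 days in medium with 15% serum and 1000 units/ml LIF. With 1 library per genotype and assay, no difference below has a replicate check and none was tested, and clonal differences and the genotype cannot be told apart. The TetTKO WGBS library held 150076506 CpG read calls and the WT library 132749634 over 14321696 listed CpGs of the autosomes and X, with median coverages of 10 and 8. Intervals on read shares cover counting error only, and are too narrow even for that, because a read enters once for each CpG it covers.

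RNA of the clusters was scarce in both genotypes, and most of what there was came from gamma genes. The deposited values are FPKM, fragment counts scaled to transcript length and library size. None of the 59 members reached 1 FPKM in either library, against 48.8% of all 22492 symbols that did so. The rule of a 2-fold difference in log2(FPKM + 1), counted over genes of at least 1 FPKM in either library, could therefore be applied to none of them. Over all 10984 genes it held for 1.77% upward and 0.847% downward. Summed over the gamma members the level was 4.86 FPKM in TetTKO and 5.46 FPKM in WT. The beta members summed to 0.61 FPKM in TetTKO and 0.73 FPKM in WT, and the alpha members to 0.07 and 0.04 FPKM. Of the 15 alpha members 11 were listed at 0 in TetTKO and 13 in WT, and of the 22 beta members 11 were listed at 0 in each library. In both libraries at once, 10 alpha and 9 beta members were listed at 0, against 3999 of all 22492 symbols. No gamma member was listed at 0. In bulk RNA, fewer cells that express a gene and less RNA per cell cannot be told apart.

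**Figure D1:**
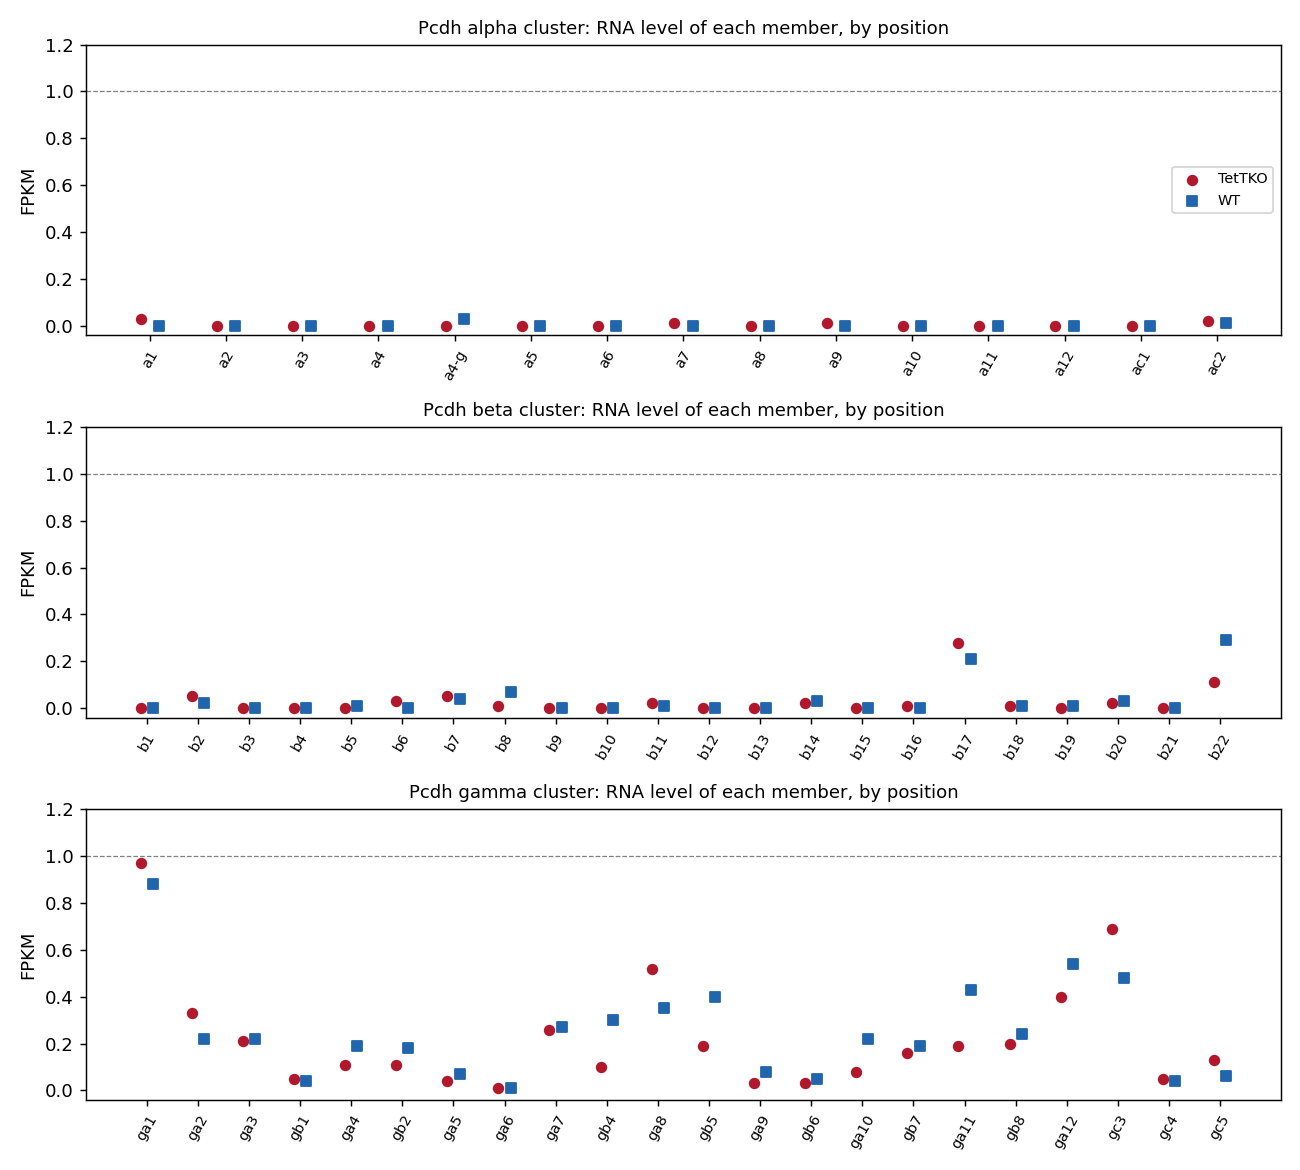
FPKM (vertical axis) of each member in the order of its start along chromosome 18, for the alpha, beta and gamma clusters, with TetTKO as red circles and WT as blue squares. Each point is 1 library, the dashed line marks 1 FPKM, and the gamma members hold most of the signal, up to 0.97 FPKM for Pcdhga1 in TetTKO.

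The most abundant member in both libraries was Pcdhga1, the first gamma gene, with 0.97 FPKM in TetTKO and 0.88 FPKM in WT. The C-type gene Pcdhgc3 came next in TetTKO and Pcdhga12 in WT. Pcdhgc3 had 0.69 FPKM in TetTKO and 0.48 FPKM in WT. Pcdhga12 had 0.40 and 0.54 FPKM in TetTKO and WT, and Pcdhga8 had 0.52 and 0.35 FPKM. All of the C-type gamma genes were higher in TetTKO, with Pcdhgc4 at 0.05 and 0.04 FPKM and Pcdhgc5 at 0.13 and 0.06 FPKM in TetTKO and WT. The A and B types leaned the other way. Of the 12 Pcdhga genes 8 were lower in TetTKO, and of the 7 Pcdhgb genes 6 were lower, among them Pcdhgb4 with 0.10 FPKM in TetTKO and 0.30 FPKM in WT. In all, 14 of 22 gamma members were lower and 7 higher. Among 7469 other symbols that were under 1 FPKM in both libraries and above 0 in at least 1 of them, 32.7% were lower in TetTKO and 61.4% higher.

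The largest gamma differences on the log2(FPKM + 1) scale were -0.27 for Pcdhga11, with 0.19 FPKM in TetTKO and 0.43 FPKM in WT, -0.24 for Pcdhgb4, and -0.23 for Pcdhgb5, with 0.19 FPKM in TetTKO and 0.40 FPKM in WT. The pseudocount of 1 FPKM compresses differences at such low levels. Because gamma genes share their constant exons, the split of reads among them is uncertain. Among beta genes, which do not share exons, only Pcdhb17 and Pcdhb22 reached 0.1 FPKM. Pcdhb22, the last of them, had 0.11 FPKM in TetTKO and 0.29 FPKM in WT, Pcdhb17 had 0.28 and 0.21 FPKM, and Pcdhb8 had 0.01 and 0.07 FPKM. Among alpha rows Pcdha1 was at 0.03 FPKM in TetTKO and listed at 0 in WT, Pcdha4-g was listed at 0 in TetTKO and at 0.03 FPKM in WT, and Pcdhac2 had 0.02 FPKM in TetTKO and 0.01 in WT. Pcdhac1 was listed at 0 in both.

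The low level went with an embryonic stem cell profile. All 8 stem cell markers were above 1 FPKM in both libraries and none differed 2-fold. The most abundant was Dppa5a, with 3344 FPKM in TetTKO and 3211 FPKM in WT. In TetTKO 6 of the 8 were lower, among them Esrrb with 26.4 FPKM in TetTKO and 49.3 FPKM in WT, and Nanog with 71.0 and 116 FPKM. Of the 15 neural markers listed, 14 are in the files, and they summed to 110 FPKM in TetTKO and 170 FPKM in WT. Most of that was Stmn2, a microtubule regulator, with 65.9 FPKM in TetTKO and 101 FPKM in WT, and the tubulin gene Tubb3, with 32.4 and 61.1 FPKM. The defining neuronal genes Dcx, Rbfox3, Snap25 and Syt1 were at most 0.06 FPKM in TetTKO and 0.08 FPKM in WT. Nes, an intermediate filament of neural progenitors, alone was 2-fold higher, at 8.08 FPKM in TetTKO and 2.59 FPKM in WT. Of the glial markers Aqp4 was listed at 0 in both, and Gfap had 1.04 FPKM in TetTKO and 0.19 FPKM in WT. The part of these markers in the protocadherin values was not tested.

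Genes that act on the clusters were well expressed in both genotypes. Of 26 measured regulators 24 reached 1 FPKM, of which 1 was 2-fold higher and 2 were 2-fold lower. The lower ones were targeted genes, Tet1 with 4.36 FPKM in TetTKO and 15.1 FPKM in WT, and Tet2 with 4.13 and 14.9 FPKM. Tet3, also targeted, had 0.27 FPKM in TetTKO and 0.32 FPKM in WT. Ctcf had 34.3 FPKM in TetTKO and 27.1 FPKM in WT, the cohesin subunit genes Rad21 30.8 and 31.0 FPKM and Smc3 53.1 and 46.9 FPKM. Smchd1, a chromatin protein that represses the clusters, had 15.9 FPKM in TetTKO and 13.5 FPKM in WT. The most abundant was Trim28, a corepressor, with 989.7 FPKM in TetTKO and 1013 FPKM in WT. The regulator that was 2-fold higher was Dnmt3b, a methyltransferase known to methylate clustered protocadherin promoters in the embryo, at 149 FPKM in TetTKO and 66.9 FPKM in WT. Dnmt3a, the other de novo methyltransferase, had 30.3 FPKM in TetTKO and 14.7 FPKM in WT, which falls just short of the rule (log2 0.99) because of the added 1 FPKM. None of the 16 partner and signalling genes that reached 1 FPKM, of 17 measured, differed 2-fold by the same rule. Adam10, a protease that cleaves cadherins, had 2.15 FPKM in TetTKO and 1.02 FPKM in WT, a ratio of 2.11 before 1 FPKM is added. Ctnnb1 was the highest, with 382 FPKM in TetTKO and 327 FPKM in WT. The 15 measured protocadherins and relatives outside the clusters summed to 4.73 FPKM in TetTKO and 1.27 FPKM in WT. Only Pcdh1 among them reached 1 FPKM, with 2.72 FPKM in TetTKO and 0.61 FPKM in WT.

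Methylation was compared over fixed 1 kb windows with at least 5 listed CpGs, each value being the mean over CpGs. The mean was lower in TetTKO in alpha and, by less, in beta, and was nearly equal in gamma. The 130 alpha windows averaged 53.4% in TetTKO and 61.9% in WT, a difference of -8.47 points with an SD over windows of 12.2. The 112 beta windows averaged 45.6% in TetTKO and 48.8% in WT, a difference of -3.23 points (SD over windows 11.1). The 147 gamma windows averaged 46.75% in TetTKO and 46.79% in WT, a difference of -0.031 points (SD over windows 11.4). In windows of the genome outside the clusters the means were 69.1% in TetTKO and 74.2% in WT, a difference of -5.08 points. In the rest of chromosome 18 the difference was -5.36 points. The SDs describe unevenness along the DNA, not error between cultures. In windows that overlap a beta gene the beta difference was 0.791 points, and with all read calls of a cluster pooled the gamma difference was 3.11 points. Pooled over windows of at least 5 listed CpGs alone, gamma read calls were 35.3% methylated in TetTKO and 32.0% in WT. Beta read calls were 42.6% and 43.6%. Apart from the pooled difference of 3.11 points, these values leave out windows with fewer than 5 listed CpGs. That leaves 130 of 257 alpha, 112 of 256 beta and 147 of 180 gamma windows. Of those, 103 alpha, 76 beta and 69 gamma windows were lower in TetTKO by any amount, against 72.1% of all windows of the genome.

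**Figure D2:**
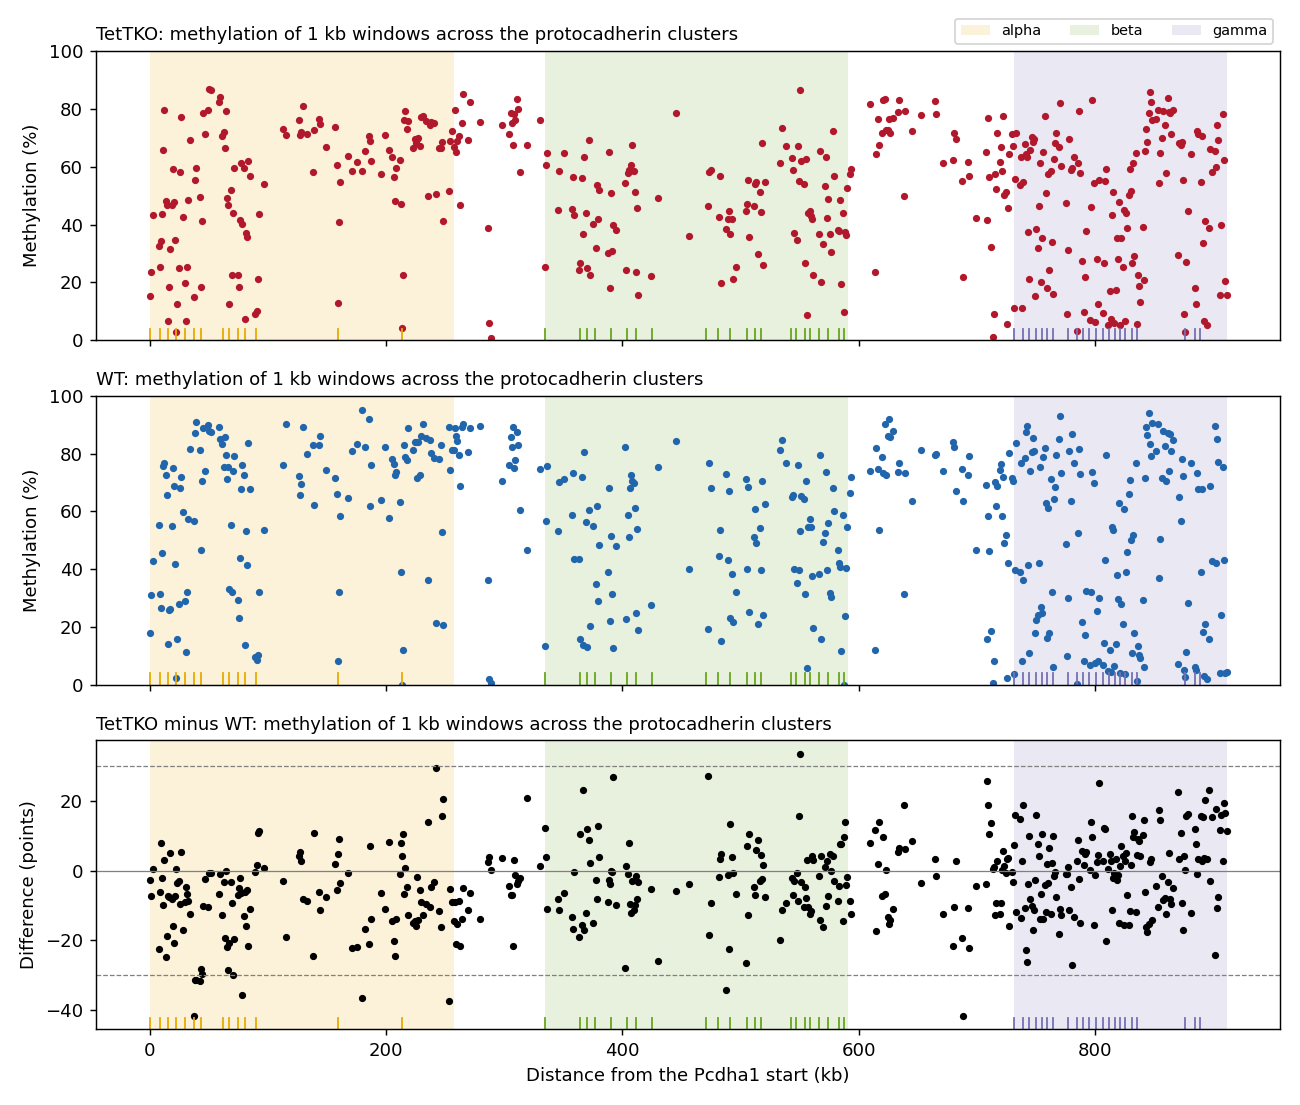
Methylation of 1 kb windows in TetTKO (top) and WT (middle) and their difference in percentage points (bottom) against distance from the Pcdha1 start in kb, 1 point per window. Shading marks the alpha, beta and gamma clusters, ticks mark member starts and dashed lines mark 30 points, and of the 10 windows below the lower line 8 lie in the alpha cluster, 1 in beta and 1 between beta and gamma.

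The clusters differed most where CpGs were dense. In windows with over 15 listed CpGs alpha averaged 37.7% in TetTKO and 44.8% in WT, a difference of -7.16 points over 44 windows. Beta averaged 41.6% in TetTKO and 39.7% in WT, 1.96 points over 47 windows, and gamma 33.6% in TetTKO and 29.4% in WT, 4.26 points over 71 windows. Such windows outside the clusters averaged 54.0% in TetTKO and 52.5% in WT, a difference of 1.51 points. Counted by direction, 34 of 44 dense alpha windows, 19 of 47 dense beta windows and 17 of 71 dense gamma windows were lower in TetTKO, against 45.1% of all such windows. In CpG-poorer windows all of the clusters were lower, by -9.14 points in alpha, -6.98 in beta and -4.04 in gamma, against -5.75 points outside the clusters.

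Windows of like density and like WT level were then set side by side. To limit regression to the mean, the WT class came from the odd-numbered CpGs of a window and the values from the even-numbered ones. In dense windows of 10 to 50% in WT, 21559 windows outside the clusters averaged 41.5% in TetTKO and 28.8% in WT, a difference of 12.7 points. Gamma windows of that class differed by 6.70 points (36 windows, SD 6.79), with 33.0% in TetTKO and 26.3% in WT. Beta windows differed by 5.23 points (29 windows, SD 7.76), with 32.7% in TetTKO and 27.4% in WT. Alpha windows stood on the other side of 0, at -4.82 points (21 windows, SD 9.19), with 23.5% in TetTKO and 28.4% in WT. Of these alpha windows 17 of 21 were lower, against 12.4% outside the clusters. Without the Pcdha6 to Pcdha9 stretch, singled out below after its values were seen, the alpha difference was -2.14 points over 18 windows, 14 of them lower. In dense windows of 50 to 80%, alpha differed by -12.4 points (10 windows), beta by -3.64 (17 windows) and gamma by -5.73 (14 windows), where 33150 windows outside the clusters differed by 0.699. In that class alpha without the stretch differed by -8.49 points (6 windows). Under 10%, gamma windows had 11.1% in TetTKO and 5.58% in WT (20 windows), against 6.39% and 2.74% outside the clusters. Alpha was higher in TetTKO in that class too, with 9.62% in TetTKO and 6.30% in WT over 5 windows. In CpG-poorer windows of 10 to 50% alpha differed by 5.87 points (11 windows), where those outside the clusters differed by 8.09.

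Methylation at the member starts was taken from 1000 bp before to 500 bp after the start of each interval, which is the end that the alpha and gamma intervals do not share. Of 58 start regions 57 had at least 5 listed CpGs, and Pcdhb9 had none. Gamma starts were low in most members, with a median of 12.7% in TetTKO and 9.85% in WT over 22 members. Of these 17 were under 20% in TetTKO and 19 in WT, and the highest value was 43.2% in TetTKO and 29.3% in WT. Alpha starts were also low in most members, with medians of 10.2% in TetTKO and 14.7% in WT over 14 members. They ran up to 73.8% in TetTKO and 76.7% in WT. Beta starts stood higher as a group, with medians of 33.5% in TetTKO and 39.8% in WT over 21 members. Only 1 of 21 was under 20% in TetTKO and 3 in WT. At the beta starts 58.4% of CpGs in TetTKO and 43.2% in WT lay between 20 and 80% methylated, where the gamma starts had 22.2% and 13.7%. Over all listed CpGs of the autosomes and X the share was 57.9% in TetTKO and 40.6% in WT, near that of the beta starts. At a median coverage of 8 to 10 reads such a share also holds sampling noise, and a single library does not tell partial methylation of each cell from a mixture of cells or alleles.

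Across the 57 members the levels followed each other, with a Pearson r of 0.84 and a Spearman rho of 0.84 between TetTKO and WT, given as a description, since starts of 1 cluster share libraries and sequence. The difference was positive for 18 of 22 gamma starts, 7 of 21 beta starts and 4 of 14 alpha starts, with medians of 2.60, -1.22 and -3.14 points. Over the 2000 bp after the start the beta median was 1.27 points. Among the ends of all other gene intervals 50.7% were higher in TetTKO, and 82.7% of those under 30% in WT. All 22 gamma starts, 7 beta starts and 10 alpha starts were under 30% in WT. Of these, 18 gamma, 6 beta and 4 alpha starts were higher. Gamma thus stood near the share of other low gene ends and alpha below it. In TetTKO the exact 95% interval of the read share lay above that of WT at 6 gamma, 1 beta and 2 alpha starts, and below it at 1 gamma, 1 beta and 6 alpha starts. Among other gene ends it lay above at 11.2% and below at 4.84%, and among those under 30% in WT at 22.6% and 0.484%.

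**Figure D3:**
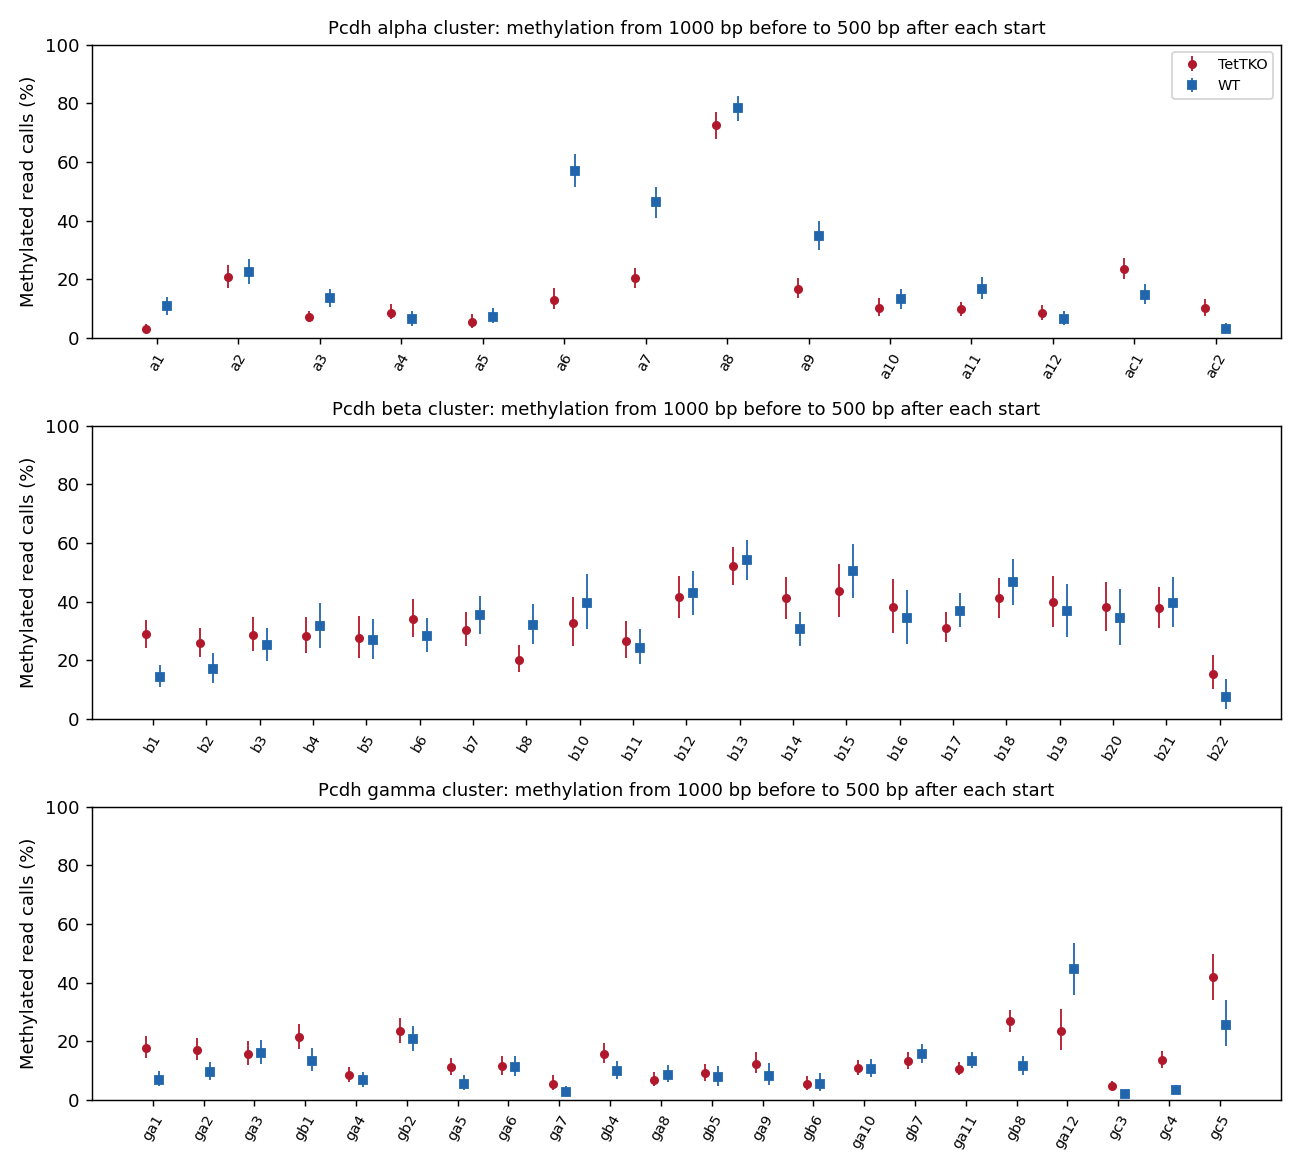
Percentage of methylated read calls from 1000 bp before to 500 bp after each member start, in order along the chromosome, with TetTKO as red circles and WT as blue squares and with exact 95% binomial intervals as bars. The WT points stand far above the TetTKO points at Pcdha6, Pcdha7 and Pcdha9, whereas Pcdha8 is high in both.

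All 5 C-type starts were higher in TetTKO, 2 of them in alpha and 3 in gamma. All were under 30% in WT, a range in which 82.7% of other gene ends were higher too. Pcdhac1 had 21.9% in TetTKO and 16.0% in WT, and Pcdhac2 had 7.24% and 2.12%. Pcdhgc3, the most expressed of them, had 4.51% in TetTKO and 2.47% in WT over 73 CpGs. Pcdhgc4 had 11.7% in TetTKO and 3.91% in WT, and Pcdhgc5, with 16 listed CpGs, had 43.2% and 23.6%. The RNA of the gamma C-type genes was higher in TetTKO too, as given above. Over the 22 gamma members, start methylation and FPKM had a Pearson r of -0.093 in TetTKO and 0.041 in WT (Spearman rho 0.071 and 0.026), at levels mostly under 0.5 FPKM. The difference in start methylation and the log2 difference in FPKM had an r of 0.31 and a rho of 0.32 over the same genes.

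Other gamma starts with large differences were Pcdhgb8, with 29.0% in TetTKO and 13.9% in WT, and Pcdhgb1, with 22.1% and 13.4%. The largest differences downward were -5.97 points at Pcdhga12, which had 23.3% in TetTKO and 29.3% in WT over 14 CpGs, -1.39 at Pcdhgb7 and -0.81 at Pcdhgb2. By read calls Pcdhga12 had 23.4% in TetTKO and 44.5% in WT, a wider gap, and Pcdhgb2 had 23.4% and 20.7%, the other direction. Among beta starts the first and last genes were the lowest in WT and were higher in TetTKO. Pcdhb1 had 28.1% in TetTKO and 15.7% in WT, Pcdhb22 had 16.7% and 7.10%, and Pcdhb2, the neighbour of Pcdhb1, had 26.5% and 17.8%. Pcdhb8 was lower, with 21.8% in TetTKO and 31.2% in WT, as were Pcdhb17, with 31.8% and 39.8%, and Pcdhb10, with 33.5% and 39.8%. Of the beta genes with the lowest WT starts, Pcdhb22 was among the most expressed, while the RNA of Pcdhb1 was listed at 0 in both libraries.

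Averaged by distance from the start, each cluster showed a dip at the promoter, and its shape differed between clusters. In the 250 bp just before the start, gamma averaged 5.96% in TetTKO and 1.85% in WT, beta 15.5% and 10.4%, and alpha 12.1% and 23.1%. Beta genes had a second dip inside the gene, between 2000 and 2249 bp after the start, with 21.9% in TetTKO and 14.6% in WT over 178 CpGs of 19 genes. Alpha had a shallower second dip, with 33.2% in TetTKO and 47.3% in WT from 1500 to 1749 bp. On its sides alpha had 56.1% and 68.4% from 1000 to 1249 bp, and 58.5% and 65.1% from 2250 to 2499 bp. Gamma dipped only mildly there, to 44.9% in TetTKO from 1750 to 1999 bp and 42.8% in WT from 2000 to 2249 bp. Both beta dips were shallower in TetTKO, while the shoulders between them were lower, at 61.2% in TetTKO and 73.2% in WT from 1000 to 1249 bp. The largest upward gamma difference lay inside the interval, with 32.4% in TetTKO and 20.7% in WT from 500 to 749 bp, and the largest downward one farther in, with 51.2% in TetTKO and 66.7% in WT from 3000 to 3249 bp. Alpha was lower in TetTKO in every bin from 3000 bp before to 4999 bp after the start. The alpha averages include the Pcdha6 to Pcdha9 stretch described below, and no profile was made without it. Of the 10 alpha start regions outside that stretch 4 were higher in TetTKO, with a median difference of -1.08 points.

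**Figure D4:**
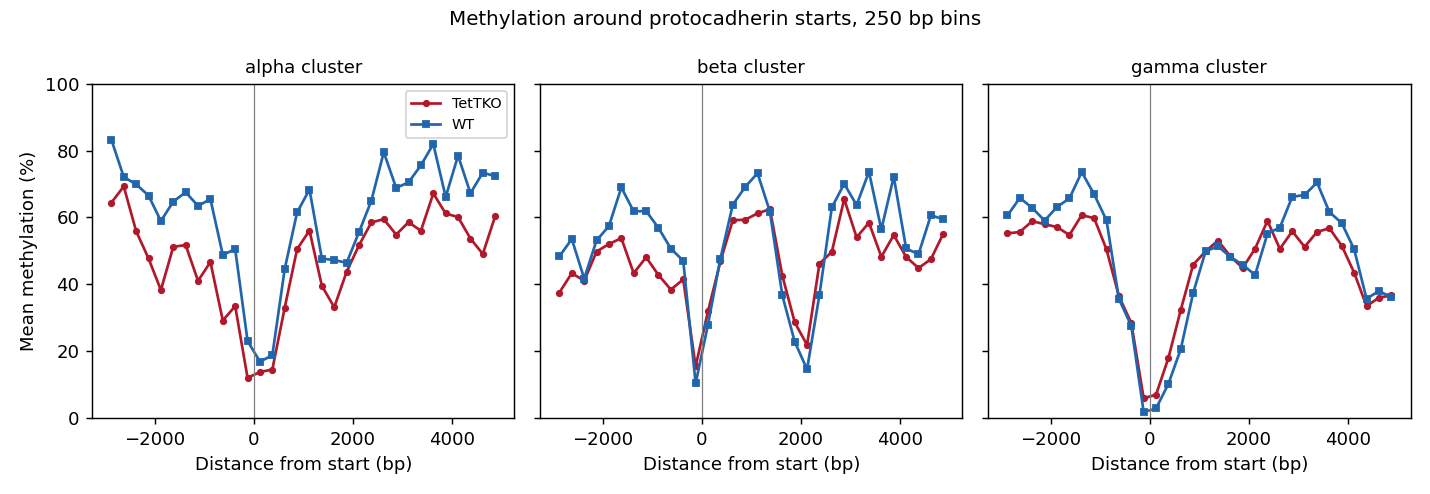
Mean methylation in 250 bp bins against distance from the interval start in bp (grey line), averaged over the members of each cluster with a listed CpG in the bin, with TetTKO in red and WT in blue. The beta panel shows a second dip near 2000 bp and the alpha panel a shallower one beyond 1500 bp. TetTKO is below WT in every alpha bin, in averages that include the Pcdha6 to Pcdha9 stretch.

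The alpha difference was uneven and was largest from Pcdha6 to Pcdha9. This stretch was singled out after its values were seen, so what follows describes it. At Pcdha5, the gene before it, the start had 3.79% in TetTKO and 5.51% in WT. At Pcdha6 13.1% of 383 read calls were methylated in TetTKO (exact 95% interval 9.85 to 16.8), against 57.0% of 314 in WT (51.3 to 62.6). At Pcdha7 the share was 20.3% of 523 read calls in TetTKO (16.9 to 24.0) and 46.2% of 355 in WT (40.9 to 51.5). At Pcdha9 it was 16.7% of 478 in TetTKO (13.5 to 20.4) and 34.7% of 363 in WT (29.8 to 39.9). Pcdha8, which lies between them, was high in both, with 72.5% of 393 read calls in TetTKO (67.8 to 76.9) and 78.5% of 353 in WT (73.8 to 82.6). At Pcdha10, the gene after the stretch, the start had 10.03% in TetTKO and 13.5% in WT. The WT library thus held 4 neighbouring starts of 34.6 to 76.7% between low ones, and in TetTKO the same starts had 13.2% at Pcdha6, 19.2% at Pcdha7, 73.8% at Pcdha8 and 17.6% at Pcdha9, all as means over CpGs.

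**Figure D5:**
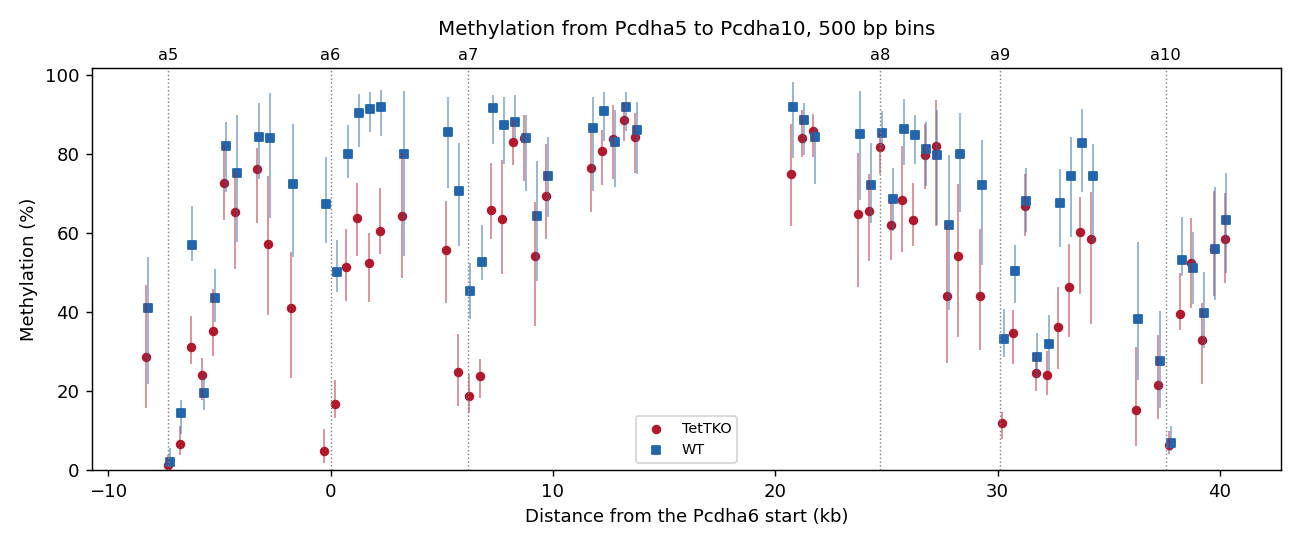
Methylation in 500 bp bins with at least 3 listed CpGs, from Pcdha5 to Pcdha10, against distance from the Pcdha6 start in kb, with TetTKO as red circles, WT as blue squares, exact 95% binomial intervals of the read share as bars and dotted lines at the starts of Pcdha5 to Pcdha10. TetTKO lies well under WT around the starts of Pcdha6, Pcdha7 and Pcdha9, and both are high at the start of Pcdha8.

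The difference reached beyond the promoters. In the 500 bp before the Pcdha6 start the mean was 4.85% in TetTKO and 67.4% in WT over 10 CpGs, and from 2000 to 2499 bp after it 60.5% in TetTKO and 91.9% in WT. Over the first 2000 bp of the interval Pcdha6 had 41.3% in TetTKO and 74.0% in WT, Pcdha7 had 38.1% and 61.7%, Pcdha8 had 70.9% and 80.1%, and Pcdha9 had 31.6% and 38.2%. All 24 windows of the stretch were lower in TetTKO, averaging 57.7% in TetTKO and 74.1% in WT. Of all windows of the genome 72.1% were lower by any amount, and of those with over 15 CpGs 45.1%. Among windows with over 15 CpGs, losses of 30 points were rare, at 0.0365% or 41 of 112415 in the genome. The stretch held 3 of these 41, and 1 more lay between the beta and gamma clusters. Because the stretch was picked after its values were seen, these counts only describe it. Read coverage did not set the stretch apart, at 1.01 times the median autosome in TetTKO and 0.979 times in WT. Neither library had more than 0.01 FPKM of RNA from Pcdha6, Pcdha7, Pcdha8 or Pcdha9.

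Without this stretch the other 106 alpha windows differed by -6.66 points, with 52.4% in TetTKO and 59.1% in WT, and their 30 dense windows by -2.27 points, with 30.5% and 32.8%. The median difference over alpha starts was -3.14 points with all 14 members and -1.08 without these 4, and -6.15 points from CpGs with at least 10 reads in both libraries. Of the numbered alpha starts outside the stretch with non-overlapping intervals, Pcdha1 had 3.23% in TetTKO and 10.8% in WT, and Pcdha11 had 10.4% and 17.8%, and Pcdha3 had 7.72% and 12.6%. Pcdha2 was the numbered alpha gene with the largest difference upward, at 23.6% in TetTKO and 19.8% in WT. In read calls it was 20.7% (16.9 to 25.0) in TetTKO and 22.3% (18.3 to 26.8) in WT, so its direction depended on the weighting of CpGs.

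Windows that differed by at least 30 points were 8 in alpha, all lower, 1 lower and 1 higher in beta, and none in gamma. In the genome 0.638% of 1223855 windows were lower by that much and 0.67% higher. At 20 points the counts were 23 lower and 2 higher in alpha, 5 and 4 in beta, and 5 and 4 in gamma, with 6.41% lower and 2.4% higher in the genome. The largest in alpha was the window at 37127000 to 37127999, which holds the Pcdha6 start, with 15.0% in TetTKO and 56.7% in WT over 39 CpGs. The next were far from any member start and rested on few CpGs. The window at 37343000 to 37343999, near the shared alpha end, had 51.7% in TetTKO and 89.3% in WT over 6 CpGs, and the one at 37269000 to 37269999, 19711 bp beyond the Pcdhac1 start, had 58.6% and 95.1% over 5 CpGs. In beta the window at 37577000 to 37577999 had 38.6% in TetTKO and 73.0% in WT, and that at 37640000 to 37640999, inside Pcdhb16, had 86.7% and 53.1%, each over 5 CpGs. A difference as large as that at Pcdha6 lay between the beta and gamma clusters, in no member interval other than that of Pcdha4-g, at 37778000 to 37778999, with 21.7% in TetTKO and 63.5% in WT over 16 CpGs.

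The largest upward differences of alpha and gamma windows lay away from the starts. Beyond Pcdhac2, before the shared alpha end, the window at 37332000 to 37332999 had 50.6% in TetTKO and 21.2% in WT over 12 CpGs, that at 37338000 to 37338999 had 41.4% and 20.7% over 14 CpGs, and its neighbour at 37337000 to 37337999 had 68.7% and 53.0%. In gamma the largest were the windows at 37893000 to 37893999, with 55.3% in TetTKO and 30.1% in WT, at 37986000 to 37986999, beyond Pcdhgc5, with 38.9% and 15.9%, and at 37960000 to 37960999, before Pcdhgc3, with 29.6% and 7.0%. Windows outside the start zones (1000 bp before to 2500 bp after a start) with under 50% in the odd-numbered WT CpGs were compared by their even-numbered CpGs. They had 34.8% in TetTKO and 22.8% in WT in gamma (21 windows), and 49.0% and 36.5% in alpha (7 windows). In beta TetTKO was the lower, with 40.5% in TetTKO and 51.8% in WT (10 windows). On average the even-numbered WT CpGs of these beta windows did not keep under the 50% limit. The beta windows are therefore not a like comparison for those of alpha and gamma. Genome windows under the same WT limit had 39.3% in TetTKO and 31.1% in WT, but these include gene starts and hold 17.2 listed CpGs on average, against 7.5 to 12.7 in the clusters. No exon or enhancer map was set against these windows.

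The largest differences downward in gamma were smaller than in alpha and lay outside the start zones, with 59.7% in TetTKO and 86.9% in WT at 37870000 to 37870999, 63.4% and 89.5% at 37832000 to 37832999, and 65.4% and 89.7% at 37991000 to 37991999. In beta the windows at 37492000 to 37492999 and 37594000 to 37594999, each before a start, had 54.4% and 44.8% in TetTKO against 82.3% and 71.4% in WT. Upward in beta, the window at 37562000 to 37562999, inside Pcdhb9, had 46.4% in TetTKO and 19.3% in WT over 5 CpGs, and that at 37482000 to 37482999, inside Pcdhb5, had 39.8% and 12.8% over 9 CpGs. Both of these lie at about the distance of the second beta dip from the start. Between the beta and gamma clusters lie Slc25a2 and Taf7, genes of other families. Taf7, a general transcription factor gene, had 73.98 FPKM in TetTKO and 88.5 FPKM in WT and a methylation of 12.6% and 8.67%. Coverage per CpG relative to the median autosome was 1.04 in TetTKO and 1.05 in WT for alpha, 0.993 and 1.05 for beta, and 1.10 and 1.10 for gamma.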

How the data were processed

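WGBS and RNA-seq of TetTKO and WT cells were analysed, with 1 library of each kind per genotype. Per the submitters' processing notes, Trim Galore, Bismark 0.7.9, Bowtie, SAMtools, TopHat2 2.0.2, Cufflinks 2.0.2 and mm9 were used; their settings and gene models are not stated in those notes. The deposited methylation files hold a fraction per CpG and counts of methylated and all reads, each CpG with at least 5 reads in each library. The deposited expression files hold FPKM rounded to 2 decimals, without strand and with unknown read depth, so no count model and no interval was used for RNA.

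Bisulfite sequencing reads 5-methylcytosine and 5-hydroxymethylcytosine alike. Methylation was recomputed from the read counts as a percent, averaged over CpGs, and compared in 1 kb windows of at least 5 CpGs and in start regions. A window belonged to the cluster of the nearest member start at or before its midpoint, and windows between clusters to none. Read shares have exact 95% binomial (Clopper-Pearson) intervals. RNA was compared as log2((TetTKO + 1)/(WT + 1)). The calculation was tested on simulated data. The members, lists and rules were chosen with earlier results of these data known. Values named are the C-type members, the 3 highest and 3 most different members of each cluster, and the 3 largest differences each way of start regions and windows, and in the other lists the most abundant genes and those past the 2-fold rule; other genes named were chosen after their values were seen. Alternatives changed the pseudocount, the CpG and coverage minimum, the grid, the threshold, the assignment of windows and the start region. Python 3.11.15, NumPy 2.4.6, pandas 2.3.3, SciPy 1.17.1 and matplotlib 3.10.9 were used. No sequence is shown here.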

Additional observations from a re-analysis of the deposited data

How the results depend on the processing

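No paired analysis was possible because each genotype has 1 library per assay and the labels carry no replicate numbers, and for the same reason no replicate could be left out. Of 64 alternatives over 18 results, 32 left the value within its counting interval (for counts within 1.5 times, for log2 values within 0.1), 31 moved it further, and 1 turned the sign of a value that stood beyond its counting interval. Values nearer to 0 than that interval also changed sign, as given below for gamma windows and beta starts. The mean beta difference of -3.23 points turned to 0.791 when only windows overlapping a beta gene counted, and was -6.95 with windows of at least 1 CpG and -0.267 with at least 10. The mean alpha difference of -8.47 was -5.64 with at least 10 CpGs, -6.50 with pooled read calls and -6.66 without the Pcdha6 to Pcdha9 stretch, an alternative chosen after seeing the data. The mean gamma difference of -0.031 was -1.19 with at least 1 CpG, 2.64 with at least 10, 1.30 at a coverage of at least 10, 3.11 with pooled read calls and 0.019 in windows overlapping gamma genes alone, so its sign is not settled. The settings with at least 10 CpGs and with pooled calls give more room to dense windows. The median alpha start difference of -3.14 was -4.65 from the start to 2000 bp after it, -6.15 at a coverage of at least 10 and -1.08 without the 4 genes. From the start to 2000 bp after it, the beta median of -1.22 was 1.27 and the gamma median of 2.60 was 4.49. Alpha windows lower by 30 points numbered 8, but 23 at 20 points, 3 when centred on the genome median of -5.79, 4 with at least 10 CpGs and 3 without the stretch; higher ones numbered 2 at 20 points and 1 when centred. In beta the 1 higher window became 4 at 20 points, 3 when centred, and 0 with at least 10 CpGs or a shifted grid, and the 1 lower window became 5 at 20 points and 0 when centred or with at least 10 CpGs. In gamma, 4 windows were higher and 5 lower at 20 points, and 1 was higher when centred. The median gamma log2 difference of -0.032 was -0.17 with a pseudocount of 0.1 FPKM. No alternative restricted to members of at least 1 FPKM could be had, since there were none. Apart from these constructions, the cause was not tested.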
